A study of Homo sapiens with 12 samples.

Results

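A set of 10 genes that report on the output of the ERK pathway, or feed back on it, was followed in Caco-2, a cell line from a human colon carcinoma. They are DUSP4, DUSP5, DUSP6, SPRY2, SPRY4, SPRED1, SPRED2, ETV4, ETV5 and PHLDA1, taken by gene symbol, 10 of the 54553 genes in the files. All 10 passed the filter on low counts, as did 18047 genes in all. The 12 libraries form 4 groups of 3, all labelled wild type. Rich medium was EMEM with 20% fetal bovine serum, 1 g/L glucose and 2 mM glutamine. Depleted medium was DMEM made without glucose and glutamine, then given 1% serum, glucose at 0.1 g/L and glutamine at 0.2 mM. In each medium the sub-confluent cells received vehicle or 100 nM bafilomycin A1 for 48 h. Bafilomycin A1 inhibits the vacuolar proton pump and so the acidification of lysosomes. Serum, glucose, glutamine and base medium changed together, so their parts in any difference between media cannot be told apart. Caco-2 is 1 cell line, and the labels do not say that replicates came from separate cultures. The p-values therefore measure only the spread between these libraries.

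Growth factors in serum bind receptor tyrosine kinases, which act through RAS and a cascade of RAF, MEK and ERK kinases. Active ERK induces genes whose products restrain the same pathway. The dual-specificity phosphatases dephosphorylate ERK, DUSP6 mainly in the cytoplasm and DUSP4 and DUSP5 in the nucleus. Sprouty proteins (SPRY2, SPRY4) and the Sprouty-related SPRED1 and SPRED2 act upstream, at RAS and RAF, and SPRED proteins recruit the RAS inhibitor neurofibromin. ETV4 and ETV5 are ETS-family transcription factors induced through ERK, and PHLDA1 is a pleckstrin homology domain protein whose transcript is part of common ERK output signatures. CIC, a repressor that ERK signalling inactivates, is known to act on ETV and DUSP6 genes.

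The upstream sequence is shown for DUSP6, the member that moved most, and for SPRED2, the one of the smallest fall in depleted vehicle medium among members with a RefSeq promoter window. Both are 250 bases before the main annotated start, 5′ to 3′ on the gene's strand (GRCh38.p14, RefSeq), DUSP6 at chr12:89352502-89352751 and SPRED2 at chr2:65432600-65432849, both on the minus strand. Capitals mark a CIC octamer as read on the opposite strand.
DUSP6: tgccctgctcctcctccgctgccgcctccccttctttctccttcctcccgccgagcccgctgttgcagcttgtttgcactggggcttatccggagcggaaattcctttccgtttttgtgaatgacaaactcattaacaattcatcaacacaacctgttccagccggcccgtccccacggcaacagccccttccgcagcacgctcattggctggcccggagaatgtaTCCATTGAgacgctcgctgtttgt
SPRED2: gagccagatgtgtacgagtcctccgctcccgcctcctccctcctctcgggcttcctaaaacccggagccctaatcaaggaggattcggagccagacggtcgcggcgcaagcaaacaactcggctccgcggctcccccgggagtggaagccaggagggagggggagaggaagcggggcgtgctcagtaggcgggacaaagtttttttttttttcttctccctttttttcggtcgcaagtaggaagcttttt
The windows searched run from 250 bases before to 50 after each start, on both strands. The table held 9 windows for 6 members (DUSP6, SPRY2, SPRY4, SPRED1, SPRED2, PHLDA1) among 35116. The CIC octamers TGAATGAA, TCAATGAA, TGAATGGA and TCAATGGA were in 1 of the 9 windows, against 3.77% of all. That window was DUSP6, which held the octamer at positions -24 to -17 and again at 2 to 9, counted from the start site as 1. The AP-1 letters TGANTCA were in 1 of the 9, the window of a second SPRED2 start, against 7.71% of all. The ETS site CCGGAAGT (4.14% of all), the CRE TGACGTCA (1.85%), the E-box CACGTG (7.26%) and the CArG box (1.29%) were in 0 of the 9. A match describes letters, not binding.

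Library totals ran from 33859998 to 51649213 estimated reads in 11 libraries and were 12969814 in rich vehicle replicate 1. All 7 epithelial markers of Caco-2 cells (EPCAM, KRT8, KRT18, CDX2, VIL1, CDH1, HNF4A) passed the filter. Summed they were 6860 to 9650 CPM (read counts scaled to a common library size) in rich vehicle, 5760 to 7080 in rich bafilomycin, 4980 to 5840 in depleted vehicle and 3140 to 3590 in depleted bafilomycin. KRT8, a keratin gene, was the largest part of that sum in rich vehicle (mean 4290 CPM) and in depleted vehicle (1820 CPM). In depleted bafilomycin CDH1 (1390 CPM) was larger than KRT8 (701 CPM). KRT18 (1540 and 550 CPM) and EPCAM (647 and 417 CPM) were also lower in depleted than in rich vehicle, and VIL1 was at 292 and 280 CPM. CDX2 (70.8 and 135 CPM), HNF4A (319 and 544 CPM) and CDH1 (1390 and 1610 CPM) were higher in depleted vehicle. The 6 enterocyte differentiation markers summed to 208 to 412, 343 to 508, 425 to 581 and 155 to 388 CPM in the same group order. The proliferation genes MKI67 and TOP2A summed to 526 to 830, 300 to 397, 265 to 349 and 128 to 202 CPM in the same order, so they moved with the groups. The median gap between a transcript's length and effective length, which follows fragment length, was 174.4 to 195.6 bases in depleted bafilomycin and 196.9 to 266.6 in the other libraries, highest in rich vehicle replicate 1. Their part in the differences below was not tested. Fibroblast markers summed to 22 to 53.5 CPM and blood markers to 1.68 to 4.59 CPM over all libraries, and NEUROD1, an enteroendocrine factor, was at 0 in every library. In bulk libraries, fewer cells that express a gene and less RNA per cell cannot be told apart.

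All 10 members were lower in depleted than in rich medium without drug. Every one passed the test (edgeR quasi-likelihood, Benjamini-Hochberg adjusted p under 0.05 over 18047 genes), against 15.4% of all genes tested that fell and 15.5% that rose (30.9% together). The median log2 fold change was -1.55 for the members and 0.04 for all genes. No library of depleted vehicle reached the lowest rich vehicle library in any member, a separation found in 18.2% of all genes. Over both treatments, all 6 rich libraries lay above all 6 depleted ones in 10 of 10 members, against 6.27% of genes. The members were chosen with earlier results of these data known. The shares of all genes are therefore given for scale, here and below, and not as a test of the set. The comparisons share libraries, so the values below are given side by side and no comparison is offered as support for another.

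**Figure D1:**
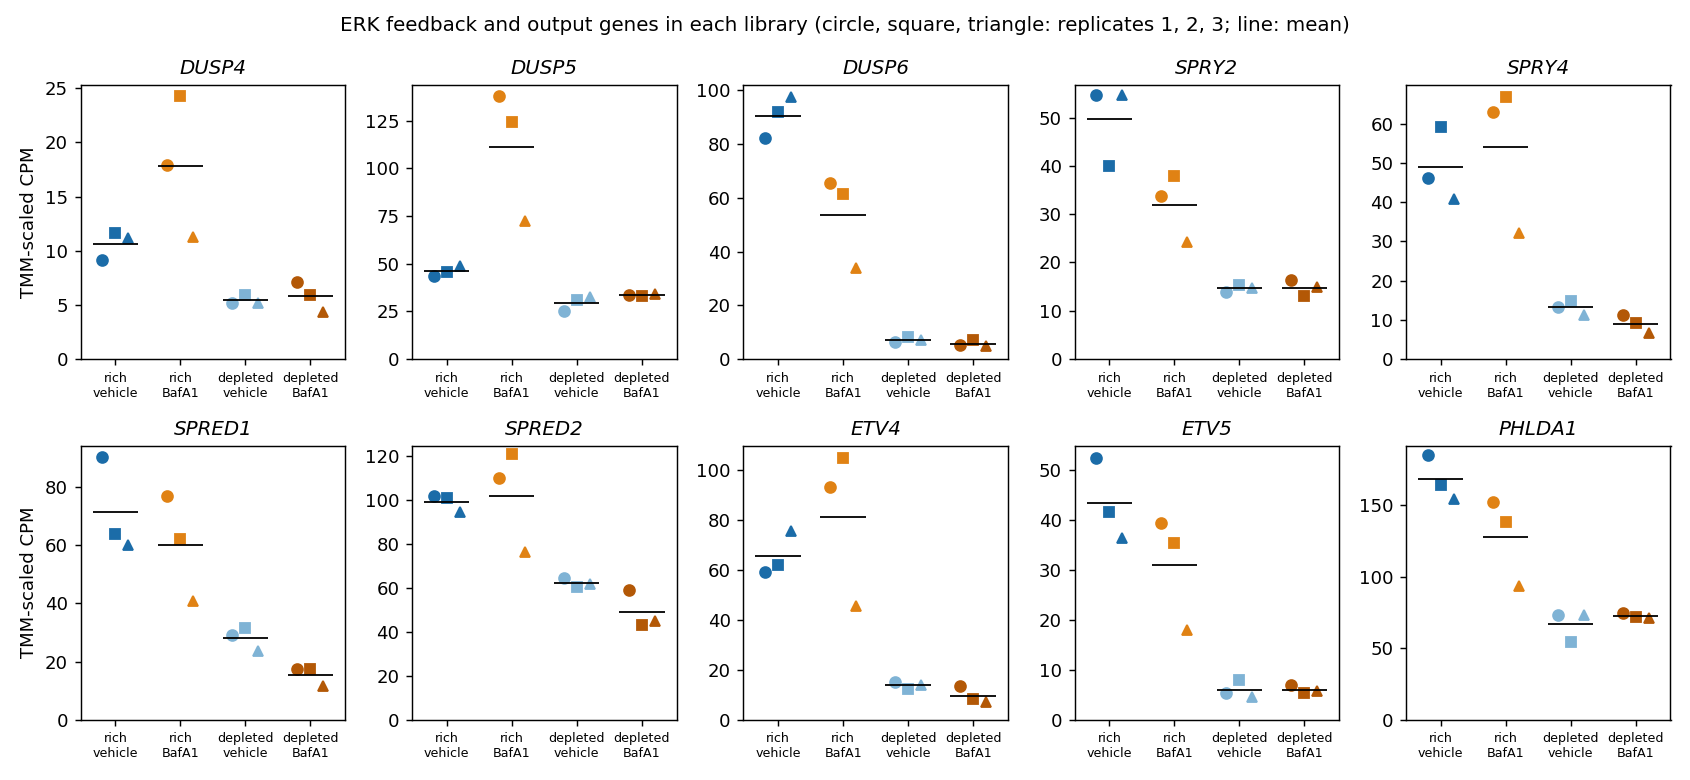
CPM of the 10 members in each of the 12 libraries (vertical axes start at 0 and differ by panel), with points for single libraries and lines for group means. In every panel the 6 rich libraries lie above the 6 depleted ones, and rich bafilomycin replicate 3 is the lowest of its group.

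DUSP6, the cytoplasmic ERK phosphatase (chromosome 12, 89347235 to 89352501), showed the largest fall. It measured 82.4, 91.9 and 97.4 CPM in rich vehicle and 6.46, 8.04 and 7.25 CPM in depleted vehicle. The groups were far apart, with little spread inside either. DUSP6 fell by 3.64 on the log2 scale (SE 0.24, adjusted p = 1.3e-06), and 34 of the 18047 genes had a lower log2 fold change. The nuclear phosphatases moved less. DUSP5 (chromosome 10, 110497907 to 110511533) measured 43.6, 45.5 and 48.5 CPM in rich vehicle and 25, 30.7 and 32.5 CPM in depleted vehicle. The groups did not overlap, and DUSP5 fell by 0.64 (SE 0.20, adjusted p = 0.022). That call was lost without rich vehicle replicate 3 (adjusted p = 0.056) or depleted vehicle replicate 1 (adjusted p = 0.11). DUSP4 (chromosome 8, 29333064 to 29350684) measured 9.15, 11.6 and 11.2 CPM against 5.18, 5.92 and 5.14 CPM, and fell by 0.98 (SE 0.26, adjusted p = 0.011).

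Both Sprouty genes fell by similar amounts. SPRY2 (chromosome 13, 80335976 to 80341126), an inhibitor of receptor tyrosine kinase signalling, measured 54.7, 40 and 54.6 CPM in rich vehicle and 13.8, 15.4 and 14.8 CPM in depleted vehicle. The depleted libraries lay close together, and the log2 fold change was -1.76 (SE 0.19, adjusted p = 3.4e-05). SPRY4 (chromosome 5, 142310430 to 142325021), which acts in the same way, measured 46.3, 59.3 and 40.9 CPM against 13.3, 14.9 and 11.3 CPM. The 3 rich vehicle libraries differed among themselves but all lay far above the depleted ones, and the log2 fold change was -1.89 (SE 0.27, adjusted p = 0.00014). The difference between SPRY2 and SPRY4 in their fall is smaller than either SE.

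The SPRED genes, whose products hold neurofibromin at the membrane, fell less than the Sprouty genes. SPRED1 (chromosome 15, 38252836 to 38357249) measured 90.2, 63.9 and 60.1 CPM in rich vehicle and 29, 31.5 and 23.5 CPM in depleted vehicle. Rich vehicle replicate 1, the shallow library, was the high value. The log2 fold change was -1.35 (SE 0.24, adjusted p = 0.00072). SPRED2 (chromosome 2, 65307175 to 65432599) measured 102, 101 and 94.5 CPM against 64.7, 60.6 and 61.8 CPM. Its libraries agreed closely within each group, and the log2 fold change was -0.67 (SE 0.17, adjusted p = 0.0087).

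The transcription factor genes stood next to DUSP6. ETV5 (chromosome 3, 186046314 to 186109089) measured 52.5, 41.6 and 36.4 CPM in rich vehicle and 5.41, 7.96 and 4.62 CPM in depleted vehicle. The highest depleted library was far below the lowest rich one. ETV5 fell by 2.86 on the log2 scale (SE 0.29, adjusted p = 2.1e-05), and 84 genes had a lower log2 fold change. ETV4 (chromosome 17, 43527846 to 43546340) measured 59.2, 61.9 and 75.5 CPM against 15.3, 12.5 and 14 CPM. It fell by 2.24 (SE 0.28, adjusted p = 7.7e-05), with 160 genes lower. PHLDA1 (chromosome 12, 76025447 to 76031776) measured 185, 164 and 154 CPM against 73.4, 54.2 and 73.3 CPM. Depleted vehicle replicate 2 was the low value of its group, and PHLDA1 fell by 1.32 (SE 0.18, adjusted p = 0.00012). Exons of DUSP6 and PHLDA1 overlap antisense transcripts, those of ETV4 overlap DHX8 on the opposite strand and those of ETV5 overlap DGKG on the same strand. The sources used here do not state whether counting was by strand, so a share of these 4 genes' reads could belong to the overlapping gene.

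Depletion in the presence of bafilomycin, comparing depleted with rich medium under drug, again placed all 10 members lower, and all 10 passed the test, against 13.6% of genes that fell and 10.5% that rose (24.1% together). The 10 members also did not overlap between these groups, as 23.8% of all genes were lower without overlap. The median log2 fold change was -1.84, against 0.01 for all genes. DUSP6 measured 65.4, 61.6 and 33.7 CPM in rich bafilomycin and 5.35, 7.08 and 4.8 CPM in depleted bafilomycin, with a log2 fold change of -3.22 (SE 0.24, adjusted p = 4.7e-06). ETV4 measured 93.3, 105 and 45.5 CPM against 13.5, 8.42 and 7.12 CPM, a log2 fold change of -3.06 (SE 0.29, adjusted p = 1.5e-05). In both genes rich bafilomycin replicate 3 was the low value of its group and still lay above every depleted library. SPRY4 had a log2 fold change of -2.58 (SE 0.27) and ETV5 one of -2.36 (SE 0.28). DUSP5 fell by 1.73 under drug (SE 0.20, adjusted p = 4.9e-05), where it had fallen by 0.64 without drug. SPRED1 fell by 1.95, DUSP4 by 1.62, SPRY2 by 1.12, SPRED2 by 1.07 and PHLDA1 by 0.81 (adjusted p = 0.0047).

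Set against rich vehicle, the cells that met both depletion and drug had 9 members called, all lower, against 21.6% of genes that fell and 21.6% that rose (43.2% together). All 10 were lower without overlap between the groups, against 22.3% of genes. DUSP6 was again the farthest, at 90.6 ± 7.61 CPM (SD, n = 3) in rich vehicle and 5.74 ± 1.19 CPM in depleted bafilomycin, a log2 fold change of -3.98 (SE 0.25, adjusted p = 1.2e-07). DUSP5 was the member not called, at 45.9 ± 2.47 and 33.5 ± 0.714 CPM, with a log2 fold change of -0.45 (SE 0.20, adjusted p = 0.073). The DUSP4 call, a log2 fold change of -0.88 (adjusted p = 0.014), was lost without depleted bafilomycin replicate 3 (adjusted p = 0.069). Depleted vehicle against rich bafilomycin had all 10 members lower and called, against 3.14% of all genes that fell and 0.875% that rose (4.01% together). These groups did not overlap in any member, where 17% of genes were lower without overlap. The log2 fold changes ran from -2.89 (DUSP6) to -0.72 (SPRED2). The count ranged from 7 to 10 when single libraries were left out. The calls lost were those of SPRED1, SPRED2 and PHLDA1, on leaving out rich bafilomycin replicate 1 or 2 or any depleted vehicle library (adjusted p 0.061 to 0.23).

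**Figure D2:**
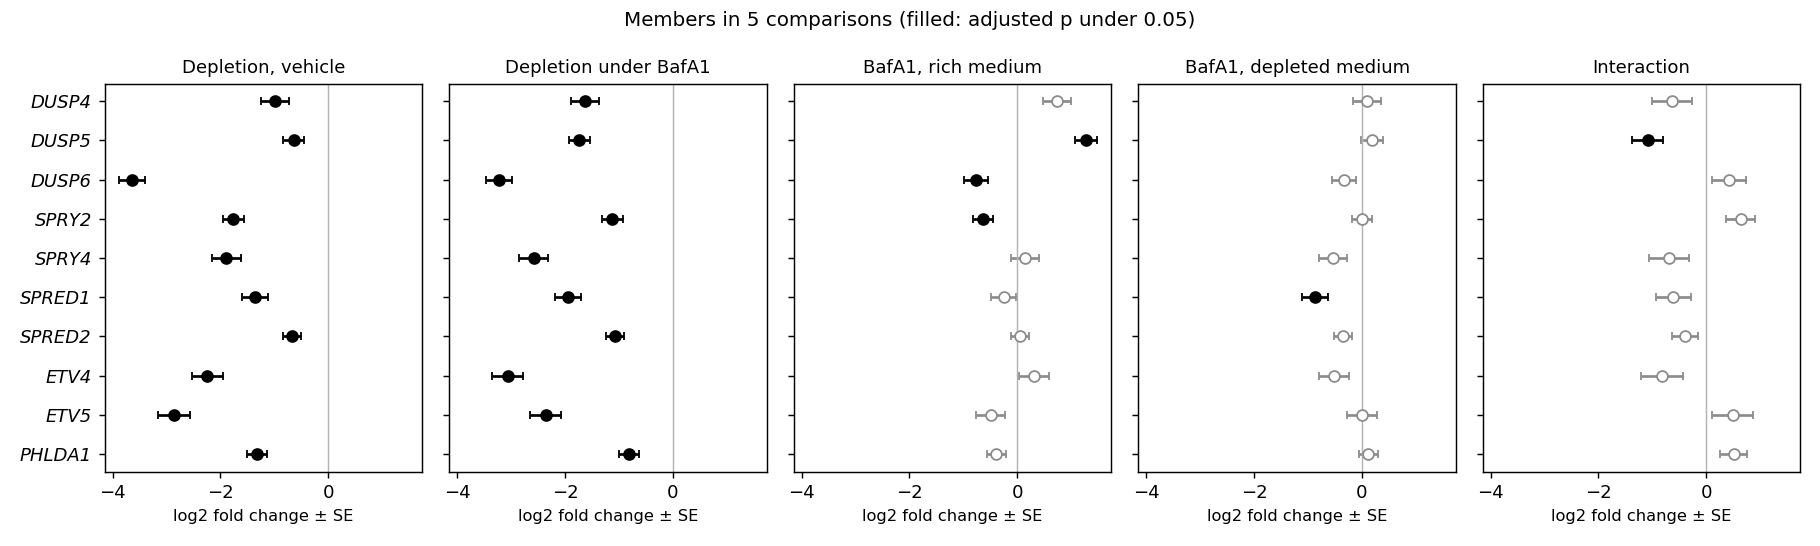
Log2 fold change of the 10 members, points with bars of 1 SE, for depletion with and without bafilomycin (BafA1), for bafilomycin in each medium and for the difference between its responses (interaction), filled where called. Depletion places all 10 genes below 0 under either treatment, from -0.64 (DUSP5) to -3.64 (DUSP6) without drug, while bafilomycin in rich medium places DUSP5 at 1.28 and DUSP6 at -0.76.

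Bafilomycin in rich medium moved the members in both directions. DUSP5 rose, DUSP6 and SPRY2 fell, and the other 7 did not pass the test. Among all genes 6.15% rose and 4.78% fell, 10.9% together, and the median log2 fold change was -0.10 for the members and 0.02 for all genes. The DUSP5 libraries measured 138, 124 and 72.6 CPM with drug, all above the vehicle range of 43.6 to 48.5 CPM. DUSP5 rose by a log2 fold change of 1.28 (SE 0.20, adjusted p = 0.0014). The DUSP6 libraries, 65.4, 61.6 and 33.7 CPM, all lay under the vehicle range of 82.4 to 97.4 CPM, and DUSP6 fell by 0.76 (SE 0.22, adjusted p = 0.038). SPRY2 measured 33.8, 38 and 24.2 CPM with drug, just under its lowest vehicle library of 40 CPM, and fell by 0.64 (SE 0.19, adjusted p = 0.041). DUSP4 measured 17.9, 24.3 and 11.3 CPM with drug, which overlapped its vehicle values, and had a log2 fold change of 0.74 (SE 0.26, adjusted p = 0.082).

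The remaining 6 members were closer to vehicle. SPRY4 measured 63, 66.9 and 32.2 CPM with drug (log2 fold change 0.14, adjusted p = 0.77) and SPRED2 110, 121 and 76.3 CPM (0.05, adjusted p = 0.90). SPRED1 measured 77, 62 and 40.7 CPM (-0.25, adjusted p = 0.54), and ETV4 had a log2 fold change of 0.31 (adjusted p = 0.50). In these 4 genes the vehicle libraries lay inside or across the drug range. ETV5 measured 39.4, 35.4 and 18 CPM (-0.49, adjusted p = 0.26) and PHLDA1 152, 138 and 93.2 CPM (-0.39, adjusted p = 0.18). PHLDA1 was lower than vehicle in every drug library without passing the test. Over the 10 members, 3 had all drug libraries under all vehicle libraries and 1 had them above, against 11.1% and 14.9% of all genes.

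Rich bafilomycin replicate 3 was the lowest library of its group in 10 of 10 members, where it was the lowest in 38.3% of all genes. The mean of the members' centred log2 CPM was 1.16, 1.18 and 0.33 in the rich bafilomycin libraries, between 0.91 and 0.97 in rich vehicle, between -0.85 and -0.72 in depleted vehicle and between -1.22 and -0.82 in depleted bafilomycin. Replicate 3 thus lay under the vehicle libraries of the same medium, and its 2 companions above them. Without it, DUSP4 (log2 fold change 0.98, adjusted p = 0.029) and DUSP5 rose and no member fell. DUSP6 then had a log2 fold change of -0.51 (adjusted p = 0.13) and SPRY2 one of -0.47 (adjusted p = 0.17). With the shallow rich vehicle replicate 1 also left out, 1 member, DUSP5, rose and none fell, with DUSP6 at -0.58 (adjusted p = 0.088) and SPRY2 at -0.40 (adjusted p = 0.24). The DUSP6 call was also lost without rich vehicle replicate 1, 2 or 3, rich bafilomycin replicate 2, depleted vehicle replicate 1 or depleted bafilomycin replicate 1 (adjusted p 0.052 to 0.076). The SPRY2 call was lost without any 1 of 10 of the 12 libraries (adjusted p 0.053 to 0.17), all but rich vehicle replicate 2 and rich bafilomycin replicate 2.

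The 2 phosphatases that moved apart were also compared inside each library. The ratio of DUSP5 to DUSP6 CPM was 0.529, 0.495 and 0.498 in rich vehicle and 2.11, 2.01 and 2.16 in rich bafilomycin. It was 3.87, 3.82 and 4.49 in depleted vehicle and 6.27, 4.63 and 7.12 in depleted bafilomycin. No group overlapped another, and rich bafilomycin replicate 3, the lowest of its group in each gene, was close to its companions on this measure. The ratio was chosen after the values were seen and is given with no test, and since CPM is not per length only its change between groups can be read. The ratio of SPRED2 to SPRED1 averaged 1.43, 1.75, 2.26 and 3.25 in the same group order. That of ETV4 to ETV5 averaged 1.56, 2.62, 2.47 and 1.59, and that of SPRY4 to SPRY2 averaged 1.03, 1.65, 0.898 and 0.614.

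**Figure D3:**
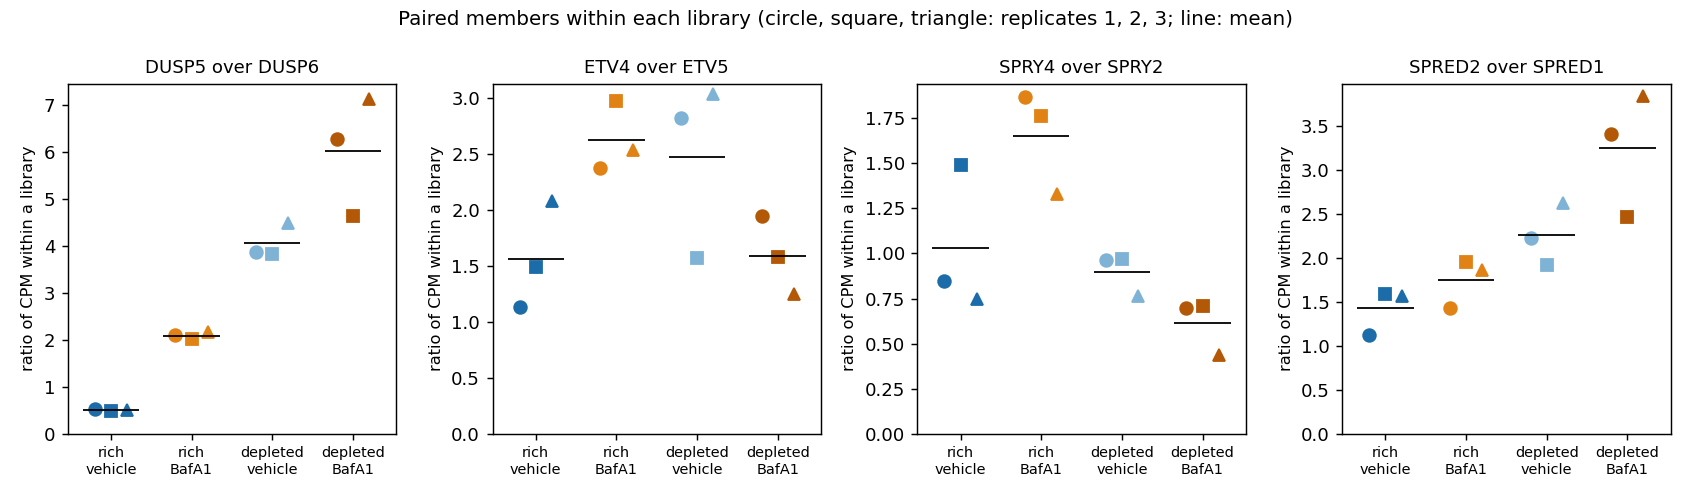
Ratio of CPM within each library for 4 pairs of related members, by group (linear axes from 0, points for libraries, lines for group means, BafA1 for bafilomycin A1). The ratio of DUSP5 to DUSP6 runs from 0.495 to 0.529 in rich vehicle to between 4.63 and 7.12 in depleted bafilomycin without overlap between groups.

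In depleted medium bafilomycin changed 1 of the 10 members, SPRED1. Among all genes 5.5% rose and 5.91% fell, 11.4% together, and the median log2 fold change was -0.16 for the members and -0.03 for all genes. SPRED1 measured 17.3, 17.4 and 11.6 CPM with drug, all below its lowest vehicle library of 23.5 CPM, and fell by 0.86 (SE 0.24, adjusted p = 0.03). That call was lost without depleted vehicle replicate 1 or 2 or any depleted bafilomycin library (adjusted p 0.053 to 0.14). SPRED2 measured 59, 43 and 44.8 CPM, also below its vehicle libraries, with a log2 fold change of -0.35 (adjusted p = 0.22). SPRY4 (11.3, 9.21 and 6.53 CPM, log2 fold change -0.54, adjusted p = 0.21) and ETV4 (-0.52, adjusted p = 0.26) did not pass. With the replicate number as a block SPRY4 passed as well (-0.57, adjusted p = 0.041), so 2 members were then called. DUSP6 was near its depleted vehicle level, at a log2 fold change of -0.33 (adjusted p = 0.40). ETV5 measured 6.95, 5.35 and 5.69 CPM and SPRY2 16.3, 13 and 15 CPM, both with a log2 fold change of 0.00. DUSP5 (33.6, 32.8 and 34.2 CPM), PHLDA1 (74.9, 72.1 and 71.4 CPM) and DUSP4 (7.1, 5.94 and 4.32 CPM) had log2 fold changes of 0.19, 0.12 and 0.10. The drug libraries of DUSP5 all lay above the highest vehicle library of 32.5 CPM without passing the test. Over the 10 members, 2 had all drug libraries under all vehicle libraries and 1 had them above, against 20.1% and 19.8% of all genes.

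The response to bafilomycin differed between media in DUSP5, by the interaction term of the same fit. The log2 response was 1.28 in rich and 0.19 in depleted medium, a difference of -1.09 (SE 0.28, adjusted p = 0.032), where 2.35% of all genes had a positive call and 3.83% a negative one (6.18% together). The call was kept without rich vehicle replicate 2 or 3, rich bafilomycin replicate 3 or depleted vehicle replicate 1, and lost without any 1 of the other 8 libraries (adjusted p 0.053 to 0.091). ETV4 had a difference of -0.83 (adjusted p = 0.22) and SPRY2 one of 0.64 (adjusted p = 0.16), and neither passed.

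The order of the groups differed between members. Rich vehicle was highest in DUSP6, SPRY2, SPRED1, ETV5 and PHLDA1, and rich bafilomycin was highest in DUSP4, DUSP5, SPRY4, SPRED2 and ETV4. The step between these 2 groups passed the test in DUSP5, DUSP6 and SPRY2. Depleted vehicle was the lowest group in DUSP4, DUSP5 and PHLDA1, where the step to depleted bafilomycin passed in none. Depleted bafilomycin was lowest in DUSP6, SPRY4, SPRED1, SPRED2 and ETV4, where that step passed in SPRED1. The 2 depleted groups had equal means in ETV5 (6 CPM) and in SPRY2 (14.7 CPM). The highest group mean exceeded the lowest by 15.8 times in DUSP6, 8.4 times in ETV4, 7.25 times in ETV5 and 2.1 times in SPRED2.

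Between genes, levels were read on the deposited scale of TPM (transcripts scaled to a fixed library sum), which accounts for length. In rich vehicle ETV4 led at a mean of 45.1 TPM (SD 13.1, n = 3). PHLDA1 followed at 38.6 (SD 15), DUSP6 at 34.4 (SD 9.48), SPRY2 at 31.8 (SD 11.3) and SPRED2 at 31.2 TPM (SD 11.6). The gaps between these followers were smaller than their SDs, so their order was not resolved. The gap from ETV4 to PHLDA1 was also smaller than their SDs. Within each rich vehicle library ETV4 was the higher of these 2 (56.1, 48.5 and 30.6 TPM, against 51.5, 42.1 and 22.1). DUSP4 was the least abundant member in every group, between 1.03 and 3.67 TPM. By group mean, DUSP6 was at rank 3 of the 10 in rich vehicle, rank 5 in rich bafilomycin (17.6 TPM) and rank 8 in both depleted groups (2.21 TPM in each). Given the spread in rich vehicle, the step from rank 3 to rank 5 cannot be read. DUSP5, at 25.9 TPM in rich vehicle, reached 51.6 TPM in rich bafilomycin and 12.5 and 18 TPM in the depleted groups. SPRED2 was at 15.5 and 15.4 TPM in the depleted groups. TPM were not scaled by TMM, so changes between groups are to be read from CPM. On that scale SPRED2 averaged 62.4 CPM in depleted vehicle and 48.9 CPM in depleted bafilomycin, and DUSP6 7.25 and 5.74 CPM.

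Other genes of the pathway, in 7 lists by role, were counted in depleted against rich vehicle, where 15.5% of all genes rose and 15.4% fell. Of the 15 receptors and ligands tested, 6 rose and 3 fell, with a median log2 fold change of 0.79. ERBB3 (1.48), INSR, the insulin receptor (1.10), and ERBB2 (0.93) rose, and FGFR1 (-1.53) fell. The ligand genes EREG (-0.63) and HBEGF (-0.85) also fell, and AREG (-0.59) was not called. The ligand genes BTC (1.69, from 0.242 to 0.608 CPM) and TGFA (1.17, from 0.0962 to 0.258 CPM) were barely counted and not called. They enter the median, which thus mixes receptors with ligands that moved in both directions. Of 13 adaptors, RAS genes and RAS regulators, 1 rose, the exchange factor SOS2 (0.88), and 4 fell, among them HRAS (-1.07) and the phosphatase PTPN11 (-0.87). Of 14 genes of the kinase cascade, 6 rose and 2 fell (4 rose without rich bafilomycin replicate 3, and 3 with rich vehicle replicate 1 also left out). RPS6KA2 (3.58, from 0.264 to 3.72 CPM), the kinase gene MKNK2 (1.03) and BRAF (0.78) rose, while MAP2K1, which encodes MEK1, fell (-1.0).

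Of 15 other MAP kinase phosphatases and feedback inhibitors, 1 rose and 5 fell. DUSP9, an ERK phosphatase, rose from 4.46, 4.35 and 7.67 CPM to 29.9, 20.3 and 46.2 CPM (log2 fold change 2.53, SE 0.44, adjusted p = 0.00078), against the direction of the member phosphatases. DUSP2 (-1.31) and RASA2 (-1.03) fell. Of 17 immediate early genes, the fast transcriptional response to growth factors, 3 rose and 6 fell (2 and 8 without both libraries that stood apart, rich vehicle replicate 1 and rich bafilomycin replicate 3). IER3 went from 50.4, 65 and 66.7 CPM to 9.73, 11.6 and 10.2 CPM (log2 fold change -2.53, adjusted p = 1.2e-05), and FOSL1 (-2.20), KLF10 (-1.46) and NR4A1 (-1.04) also fell. Among those that rose were FOSB (2.17, from a mean of 0.579 to 2.92 CPM) and ATF3 (0.56). The FOSB call was kept with any single library left out. The ATF3 call was lost without depleted vehicle replicate 3, and also without both libraries that stood apart (0.46). FOS did not pass (0.02, adjusted p = 0.96). Of 16 genes tested in the list of further ERK output genes, 0 rose and 9 fell, with a median of -0.85. That list also held the repressor CIC and the transcription factor genes ELK1, ELK3 and ELK4. Its count and median therefore mix regulators with outputs. Among the genes that fell were CCND1, which encodes cyclin D1 (-1.68), the receptor EPHA2 (-1.94), ETS1 (-2.25) and PHLDA2 (-1.90). Of 13 stress MAP kinase genes, 3 rose and 1 fell, with MAP2K5 (1.39) and MAPK13 (0.87) among those that rose.

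**Figure D4:**
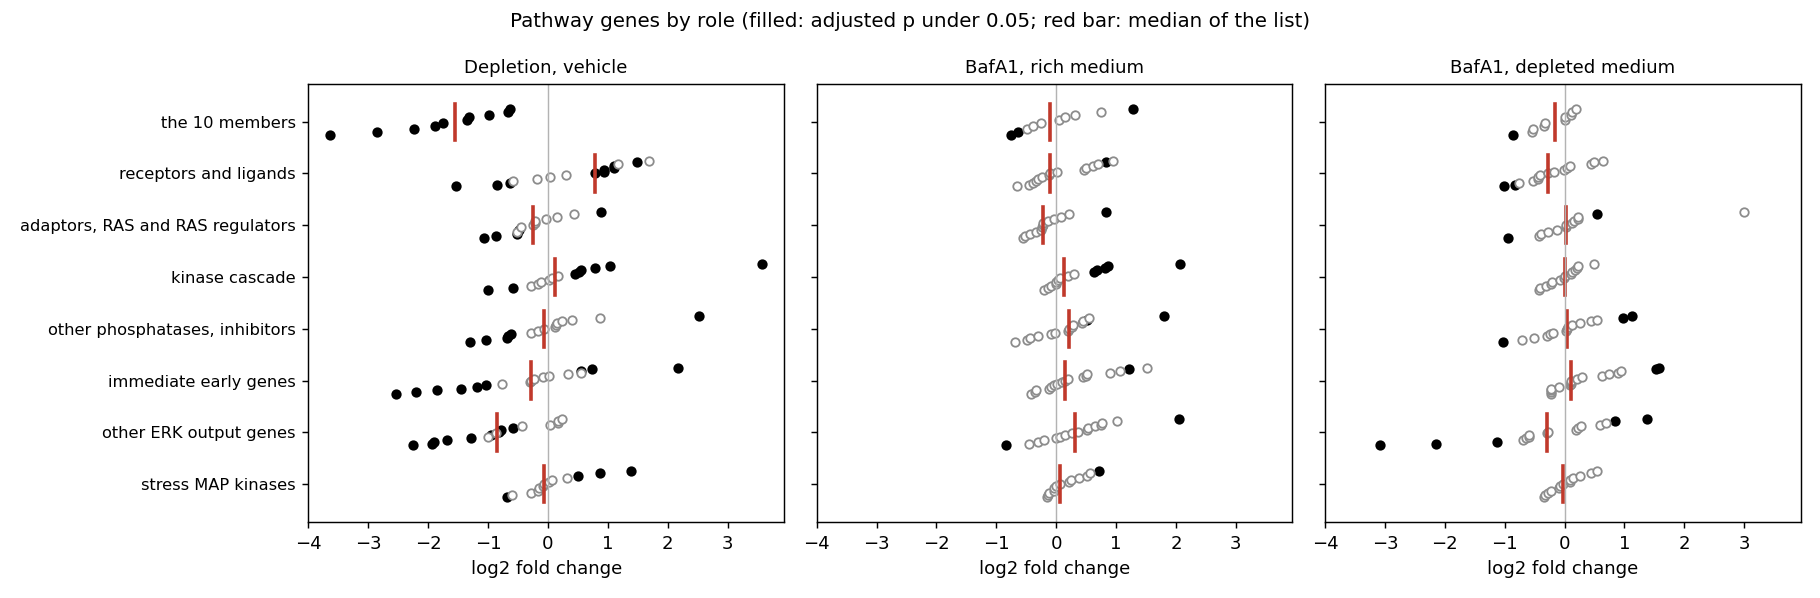
Log2 fold change of each tested gene of the 10 members and the 7 pathway lists for depletion without drug and bafilomycin in each medium, filled where called, with the list median as a bar. The members and the list of other ERK output genes lie mostly below 0 in depleted medium (medians -1.55 and -0.85), and the receptors and ligands mostly above (0.79). Within that last list the ligand genes lie on both sides of 0.

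Over the 7 lists bafilomycin called 13 of 103 genes in rich medium (12.6%, against 10.9% of all genes) and 14 of 103 in depleted medium (13.6%, against 11.4%), shares near the background. In rich medium 5 of the 14 kinase cascade genes rose, among them MKNK2 (0.87) and KSR1 (0.81), and 2 rose once rich bafilomycin replicate 3 was left out. FOS rose from 5.43, 6.92 and 7.49 CPM to 17.5, 17.1 and 11.6 CPM (log2 fold change 1.21, adjusted p = 0.0028), and EMP1, a membrane protein gene, rose by 2.05. In depleted medium CCND1 fell further, from 142, 131 and 149 CPM to 38.2, 30.1 and 27.3 CPM (log2 fold change -2.14, SE 0.24, adjusted p = 0.00013). ATF3, a stress-induced transcription factor gene, rose by 1.58, DUSP8 by 1.13 and DUSP7 by 0.97, and EPHA4 fell by 1.12.

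Likeness to the members was measured as the root mean square difference of centred log2 CPM over the 12 libraries, among the 14102 genes that averaged 1 CPM or more. The genes nearest to DUSP6 were ANKRD1 (0.267), BTN1A1 (0.308), NAV3 (0.386), SOSTDC1 (0.504) and GPR3 (0.517). ANKRD1 averaged 184, 109, 19.4 and 11.9 CPM in rich vehicle, rich bafilomycin, depleted vehicle and depleted bafilomycin. Among the members ETV5 (0.518), ETV4 (0.605) and SPRY4 (0.718) were nearest to DUSP6 and DUSP5 (1.353) the farthest. Nearest to the mean of the 10 members were LOC643576 (0.158), RGCC (0.206), TPI1 (0.208), PGAM1 (0.209) and ENO1 (0.21), the last 3 encoding glycolytic enzymes. TPI1 averaged 664, 711, 233 and 174 CPM in that order. These are descriptions over libraries that share the 4 groups, with no test.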

How the data were processed

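Per the labels, total RNA of 12 Caco-2 libraries was sequenced from a stranded kit with ribosomal depletion. The authors deposited, per the file headers, estimated counts and TPM per gene for each library, and a table of counts for the whole series. The submitters' processing notes name DRAGEN and GRCh38. Annotation release and strand setting: not given in the sources used here. Of the estimated counts 5.08% were not whole, and all were rounded.

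Genes were kept by filterByExpr (minimum count 10, minimum total 15), scaled by TMM and fitted together with edgeR 4.0.16 (R 4.3.3, robust quasi-likelihood, 4 group means, 8 residual degrees of freedom), in 7 comparisons. SE is the size of the log2 fold change over the square root of F. The fit was also run on counts simulated from its own estimates of spread. Such counts cannot show how it behaves with an outlying library or paired replicates. CPM use TMM library sizes. Alternatives were DESeq2 1.42.0, its size factors, no filter, the compared libraries alone, a replicate block, a minimum fold of 1.5, the series-wide counts and each library left out. Leaving out both libraries that stood apart was added after the data were seen.

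The members and lists were chosen with earlier results of these data known, and the motifs after the values were seen. From each list, up to 4 genes with at least 1 CPM and the smallest adjusted p for depletion were eligible to be named, with up to 2 called genes for bafilomycin in each medium. FOS, FOSB, ATF3 and the ligand genes in depletion, and the genes with unequal drug responses, were named after their values were seen. Untested were EPGN and ETV1.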

Additional observations from a re-analysis of the deposited data

Results flagged for a closer look

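The bafilomycin response, as a log2 fold change, differed between media in 8 of the 113 members and list genes tested (7.08%, against 6.18% of all genes), by the interaction term of the edgeR fit (adjusted p under 0.05). With the rich-medium response subtracted from the depleted-medium response, the difference was -1.09 for DUSP5, a call lost without any 1 of 8 libraries (adjusted p up to 0.091), and -1.56 for SPRY1, a Sprouty gene outside the 10. SPRY1 measured 19.3, 21.8 and 20.3 CPM in rich vehicle and 36.6, 33 and 19.8 CPM in rich bafilomycin. In depleted medium it measured 11.7, 13 and 14 CPM with vehicle and 7.93, 5.85 and 5.33 CPM with drug, so every drug library was lower there.

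Among the receptors and kinases the difference was -1.38 for EGFR, -1.32 for ERBB2 and -1.10 for MAPK3, which encodes ERK1. ERBB2 averaged 130 and 183 CPM in rich medium and 248 and 139 CPM in depleted medium, vehicle first. The EGFR call was lost without any 1 of 10 libraries, all but rich vehicle replicate 2 and depleted bafilomycin replicate 2 (adjusted p up to 0.15). The MAPK3 call was lost without rich bafilomycin replicate 2 or 3, depleted vehicle replicate 1 or 3, or depleted bafilomycin replicate 2 or 3 (adjusted p up to 0.074), and the ERBB2 call without depleted bafilomycin replicate 2 (adjusted p 0.05 after rounding).

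Among output genes the difference was 1.07 for ATF3, -1.83 for CCND1 and -2.65 for EMP1. ATF3 averaged 26.9 and 38.4 CPM in rich medium and 39.7 and 119 CPM in depleted medium. EMP1 averaged 3.13 and 13.4 CPM in rich medium and 2.38 and 1.56 CPM in depleted medium. The ATF3 call was lost without depleted vehicle replicate 1 or depleted bafilomycin replicate 2 (adjusted p up to 0.055).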

How the results depend on the processing

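Of 1390 values of the 10 members over the comparisons and alternatives, 1302 kept their direction and side of the threshold, 62 kept direction but lost the call, 8 gained one and 18 changed sign, all in bafilomycin comparisons where the member was not called. In rich medium SPRED1 went from -0.25 to 0.16 without both libraries that stood apart. With single libraries left out, SPRY4 ranged from -0.04 to 0.41 and SPRED2 from -0.09 to 0.22. In depleted medium the ranges were -0.07 to 0.27 for DUSP4, -0.07 to 0.09 for SPRY2, -0.13 to 0.26 for ETV5 and -0.01 to 0.21 for PHLDA1. SPRY2 and ETV5, at 0.00 there, also changed sign at 0.00 under other settings, the replicate block among them. With single libraries left out, the number of members called ranged from 9 to 10 for depletion with vehicle, 10 to 10 for depletion under drug, 8 to 10 for both together against rich vehicle and 7 to 10 for depleted vehicle against rich bafilomycin. It ranged from 1 to 2 for bafilomycin in rich medium, where all libraries gave 3, and from 0 to 1 for bafilomycin in depleted medium and for the difference between media. For bafilomycin in rich medium the count was 1 with only the compared libraries, 1 with a minimum fold of 1.5 and 1 without both libraries that stood apart. A minimum fold of 1.5 gave 7 for depletion with vehicle, 9 for depletion under drug and 8 for both together against rich vehicle. It gave 0 for bafilomycin in depleted medium, 6 for depleted vehicle against rich bafilomycin and 0 for the difference between media. That difference had 2 members called with no low-count filter. Over all genes, 1971 were called for bafilomycin in rich medium, against 2990 by DESeq2, 496 with only the compared libraries and 1010 without both libraries that stood apart. For depleted vehicle against rich bafilomycin 724 were called, against 1730 by DESeq2, 132 with a minimum fold of 1.5, 3460 without both libraries and 138 to 2078 with single libraries left out, lowest without depleted vehicle replicate 1 and highest without rich bafilomycin replicate 3. For bafilomycin in depleted medium 2058 were called, against 4259 with only the compared libraries, 262 with a minimum fold of 1.5 and 878 to 3074 with single libraries left out. For the difference between media 1116 were called, against 2093 by DESeq2, 139 with a minimum fold of 1.5 and 393 to 1844 with single libraries left out.

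The labels do not say that a replicate number marks a shared culture or day, and only some pairs bear it out. Deviations of same-numbered libraries correlated at -0.081 to 0.294 (median 0.073, 6 of 18 pairs over 0.1) and those of different numbers at -0.298 to 0.101 (median -0.036). The same number was the best match in 26 of 36 cases, a hint of pairing from the data and not from the design. With the replicate number as a block, 2 members were called for bafilomycin in depleted medium, SPRY4 (-0.57, adjusted p = 0.041) added to SPRED1, and over all genes 1448 for depleted vehicle against rich bafilomycin and 1969 for the difference between media. The other 6 comparisons kept their member counts under the block.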
